A study of Mus musculus with 38 samples.

Results

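The Slc29 family encodes the equilibrative transporters, which carry nucleosides and, for Slc29a4, monoamines across membranes. Its 4 members, Slc29a1, Slc29a2, Slc29a3 and Slc29a4, were taken by symbol from the 23420 genes counted in each library. The family was chosen with the difference between dVenus+ and dVenus- cells of the same mouse already known. Values from that contrast are therefore given for the members as a description, with fold change, standard error and counts of mice, and without a test.

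ENT1, the product of Slc29a1, and ENT2, the product of Slc29a2, move adenosine and other nucleosides through the plasma membrane and help set extracellular adenosine around synapses. ENT3, encoded by Slc29a3, is a nucleoside transporter of lysosomes and other intracellular membranes, with prominent roles in macrophages and microglia. ENT4, encoded by Slc29a4 and also called the plasma membrane monoamine transporter, takes up serotonin and dopamine with low affinity and high capacity, and carries adenosine at acidic pH.

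Libraries came from male Arc::dVenus mice backcrossed to C57BL/6J, aged 8 to 12 postnatal weeks, whose reporter, the short-lived fluorophore dVenus, is under control of the promoter of Arc, so that dVenus+ marks cells with recent activity of that promoter. Mice were fear conditioned with 3 pairings of a tone and a shock (FC, 12 mice), taken through the same protocol without shocks (NS, 4 mice), or kept in the home cage with no chamber exposure (HC, 3 mice). Separate Smart-seq2 libraries were made for each mouse from 10 fluorescent and 10 non-fluorescent cells of the dentate granule cell layer. Cell contents were drawn into pipettes, at 24 h after training in FC and NS mice, which gave 38 libraries from 19 mice. Sample IDs placed the FC mice in 3 series, holding 2, 4 and 6 animals, while a further series took every NS and HC mouse, so FC levels cannot be told apart from the ID series when set against NS or HC.

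Reads on genes ranged from 1352288 to 18394761 in the FC libraries, with a median of 9955727 in dVenus- and 7080448 in dVenus+ cells. They ranged from 5713182 to 8771721 in NS and from 5970884 to 9096451 in HC. Levels are CPM, in which counts are scaled to library size, with TMM factors applied (normalized CPM). A count of 0 is read against a floor of 3 counts, worth between 0.132 and 1.69 normalized CPM depending on the library. Without molecular identifiers, floors cover counting error only.

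Arc, the gene behind the reporter, checked the cell class labels. In FC mice it ranged from 477 to 1539 normalized CPM in dVenus+ libraries, and was higher in dVenus+ than in dVenus- cells in 12 of 12 mice (log2 fold change 8.75 ± 0.95 SE, edgeR adjusted p = 6.4914e-07). The libraries labelled dVenus- of FC mice 06, 07 and 14 had raised Arc, with counts of 1276, 1095 and 2549. Their levels of 108, 48.1 and 172 normalized CPM still lay below every FC dVenus+ library. The other FC dVenus- libraries held 16 counts or fewer. The Arc difference was 10.89 ± 0.64 without these 3 mice, and 5.72 ± 1.27 and no longer called within the ID series of 4 mice. Fold changes of single genes in FC mice are given with and without mice 06, 07 and 14, except for Slc29a2, which was not refitted without them. In NS mice the Arc difference was 8.75 ± 1.44 (adjusted p = 0.00184, higher in 4 of 4 mice), a call that was lost without mouse 18 (7.97), mouse 20 (8.57) or mouse 21 (7.90), with the older quasi-likelihood method (10.63) and without the count filter (8.73). In HC mice it was 8.33 ± 1.61 (edgeR adjusted p = 0.455, higher in 3 of 3 mice), not called by edgeR and called by DESeq2, at 9.99 ± 1.78.

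The granule cell label was checked against 9 markers, among them Prox1, C1ql2, Calb1 and Stxbp6. Their summed level in FC mice had a median of 1276 normalized CPM in dVenus- libraries (856 to 2779) and of 403 in dVenus+ libraries (74.8 to 1295). It was lower in dVenus+ cells in 12 of 12 FC, 4 of 4 NS and 3 of 3 HC mice. Every library class thus held granule cell markers, at a lower level in dVenus+ cells, with Tdo2 at 0 in all NS dVenus+ and all HC dVenus- libraries.

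Transcripts of other cells were present as well. The summed level of 15 microglial markers, led by Ctss, had a median of 365 normalized CPM in FC dVenus+ libraries (42.3 to 2705) and of 63.6 in FC dVenus- libraries (2.50 to 1245). It was higher in dVenus+ cells in 10 of 12 FC, 4 of 4 NS and 3 of 3 HC mice. Astrocyte markers, led by Slc1a2, had medians of 259 and 502 normalized CPM in FC dVenus+ and dVenus- libraries, and were lower in dVenus+ cells in 9 of 12 FC mice and 2 of 4 NS mice but higher in 3 of 3 HC mice (medians 1701 and 594). In FC mice, oligodendrocyte markers, led by Mbp, had medians of 497 and 546. Interneuron markers had medians of 55.4 and 139, and markers of mossy cells and CA3 pyramidal neurons medians of 60.0 and 121. The interneuron sum reached 2482 in the FC dVenus- library of mouse 10 and 404 in the FC dVenus+ library of mouse 03. In the NS dVenus- library of mouse 18 it was 1266. The defining transcripts of endothelium, choroid plexus, oligodendrocyte precursors and monoaminergic neurons had medians below 1 normalized CPM in both classes of FC mice. Single FC libraries were higher, up to 82.9 for oligodendrocyte precursors, 43.1 for choroid plexus and 36.2 for monoaminergic neurons. Endothelial markers were higher in dVenus+ cells in 9 of 12 FC, 3 of 4 NS and 3 of 3 HC mice. Oligodendrocyte precursor markers were higher in 7 FC mice and lower in 2, and higher in 3 of 4 NS and 3 of 3 HC mice. Some mice enter these tallies on sums below the floor of 3 counts, so the tallies show no measured class difference. FC mouse 10 had endothelial sums of 0.0837 and 0.0533 normalized CPM, against floors of 0.251 and 0.160. HC mouse 17 had an oligodendrocyte precursor sum of 0.133 in dVenus+ cells, against a floor of 0.398. Choroid plexus markers were higher in 5 FC mice and lower in 6. HC dVenus+ medians were 12.6 for endothelium and 19.1 for choroid plexus. The NS dVenus- library of mouse 18 held 133 and 70.4. Monoaminergic markers were higher in dVenus+ cells in 3 of 4 NS and 3 of 3 HC mice, with an HC dVenus+ median of 48.8. Each HC dVenus+ library held reads of only 1 of the 4 monoaminergic markers. Ddc led in that group, with Tph2 and Dbh at 0. The dVenus+ sums of NS mice 19 and 21 were 1.49 and 0.701 normalized CPM, the latter at its floor of 0.701.

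**Figure D1:**
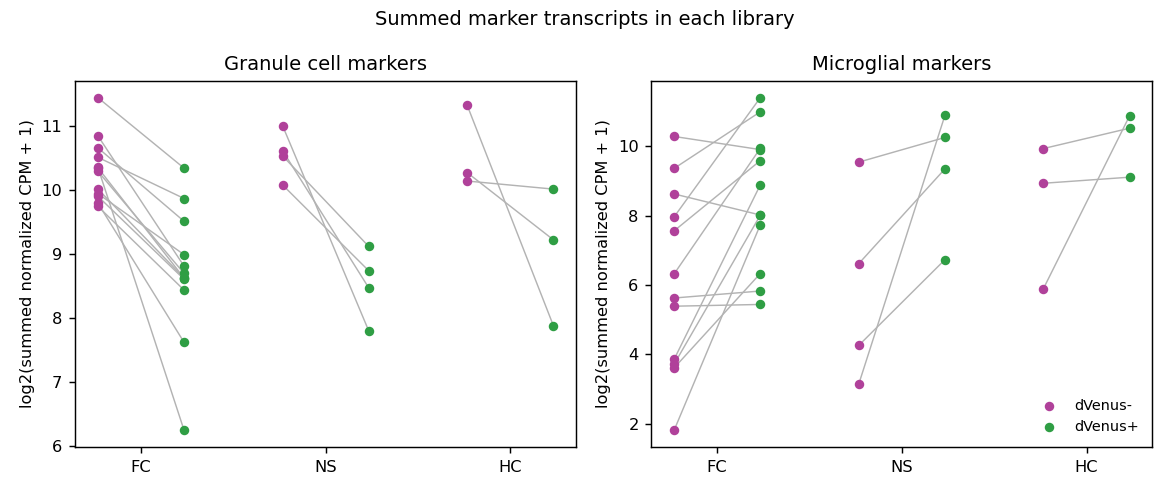
Summed granule cell markers (left) and microglial markers (right) in each library, as log2(summed normalized CPM + 1), for 12 FC, 4 NS and 3 HC mice; lines join the dVenus- (magenta) and dVenus+ (green) library of a mouse. The granule cell sum is lower in dVenus+ cells in 19 of 19 mice, and the microglial sum is higher in 10 of the 12 FC mice and in every NS and HC mouse.

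Across the family, Slc29a4 was the member with the most reads. It had at least 10 counts in 27 of 38 libraries, 17 of them dVenus- and 10 dVenus+, and 23474 counts in all. Slc29a1 reached 10 counts in 23 libraries, Slc29a3 in 21 and Slc29a2 in 7. Per kilobase of annotated exon, the median level in FC dVenus- cells was 35.3 normalized CPM for Slc29a4, 2.19 for Slc29a1, 0.414 for Slc29a3 and 0 for Slc29a2. In FC dVenus+ cells the corresponding medians were 0.299, 0.552, 0.279 and 0, so in FC mice the lead of Slc29a4 was seen in dVenus- cells and not in dVenus+ cells. In NS and HC dVenus+ cells it had the highest median of the 4 genes, at 9.22 and 0.479.

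**Figure D2:**
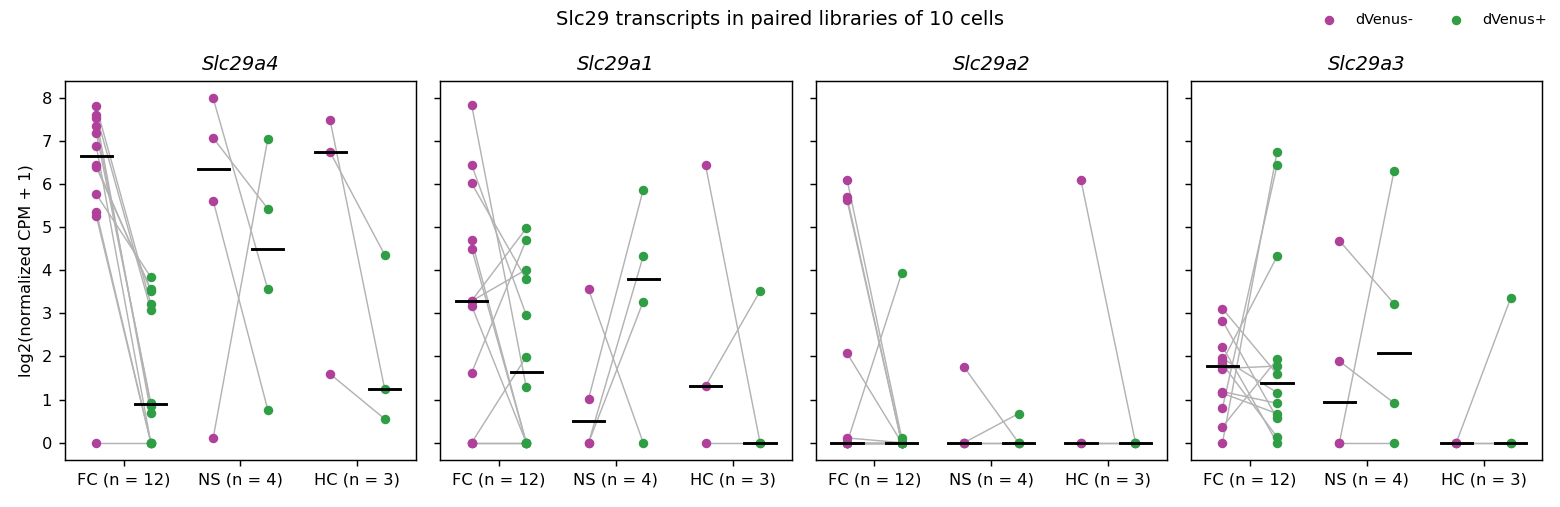
Level of each Slc29 transcript in every library, as log2(normalized CPM + 1), for 12 FC, 4 NS and 3 HC mice; lines join the dVenus- (magenta) and dVenus+ (green) library of a mouse, and black bars mark medians. Slc29a4 falls from dVenus- to dVenus+ in 17 of 19 mice, rises in NS mouse 20 and is at 0 in both libraries of FC mouse 09.

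Slc29a4, the monoamine transporter gene (GeneID 243328), spans chr5:142692478-142722490 in GRCm38.p6, between Wipi2 and Tnrc18. The annotated noncoding RNA Gm40352 overlaps it and has no row among the genes counted. The strandedness of counting is not given in the sources used here, so reads from overlapping transcripts cannot be told apart. The promoter window of the gene, from RefSeq on GRCm38.p6, covers the 300 bases around an annotated transcript start inside that span, most of them upstream, at chr5:142701851-142702150 on the + strand. It is shown because Slc29a4 is the member on which the description turns, with each GC box, GGGCGG, in capitals.

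Slc29a4: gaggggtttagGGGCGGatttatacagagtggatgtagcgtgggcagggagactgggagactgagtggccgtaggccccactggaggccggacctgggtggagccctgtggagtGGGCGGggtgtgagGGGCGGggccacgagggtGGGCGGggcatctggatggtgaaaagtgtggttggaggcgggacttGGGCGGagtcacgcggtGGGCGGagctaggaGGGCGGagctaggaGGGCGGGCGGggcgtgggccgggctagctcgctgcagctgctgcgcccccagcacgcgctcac

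The GC box was searched on both strands and occurred 9 times in this window, each time on the + strand, with the last pair overlapping. At least 1 GC box was present in 35.66% of the 32851 RefSeq windows of 300 bases. The window was 70% G and C. The single annotated windows of Slc29a2 and Slc29a3 held 1 and 3 GC boxes, and the 8 windows of Slc29a1 held between 0 and 5, the window with 5 being 72% G and C. The full cyclic AMP response element, TGACGTCA, was in none of the members' windows and in 1.79% of all windows. The shorter core of that element, TGACG, was in 1 of the 8 windows of Slc29a1 and in 20.81% of all windows. These matches describe the letters of the windows only.

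In FC mice, Slc29a4 had a lowest value of 0, a median of 101 and a highest value of 221 normalized CPM in dVenus- libraries. In dVenus+ libraries the lowest value was 0, the median 0.855 and the highest 13.3. The lowest dVenus- library above 0 held 37.3 normalized CPM. Apart from mouse 09, whose dVenus- library had 0 counts against a floor of 0.314 normalized CPM, every dVenus- library lay above every dVenus+ library. At least 10 counts were present in 11 of 12 dVenus- and in 6 of 12 dVenus+ libraries.

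The log2 fold change of Slc29a4 between dVenus+ and dVenus- cells of FC mice was -5.02 ± 0.74 (SE, n = 12 mice), with a lower level in dVenus+ cells in 11 mice and equal levels in 1. Without mice 06, 07 and 14 it was -5.06 ± 0.81. Among the FC ID series, the mean level was 3.73 normalized CPM in dVenus+ and 117 in dVenus- cells of the series of 2 mice, 3.48 and 97.8 in that of 4 mice, and 5.21 and 116 in that of 6 mice. The gap had the same direction and a similar size in all 3 series. In a bulk library of 10 cells, fewer cells carrying a transcript and less RNA per cell cannot be told apart.

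In the FC contrast, 422 of 9709 genes tested passed an adjusted p of 0.05 and an absolute log2 fold change of 1 (4.35%), with 146 higher (1.5%) and 276 lower (2.84%) in dVenus+ cells. Of the members, 3 passed the count filter. Because the members were chosen on this contrast, no call is given for them here or under any other setting. The median log2 fold change of all genes tested was -0.11.

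Granule cell and microglial transcripts moved in the same contrast. All 9 granule cell markers had a log2 fold change below 0 in FC mice, with a median of -2.02, and edgeR called 4 of them lower in dVenus+ cells (C1ql2, Plk5, Calb1 and Stxbp6) and none higher. It also called lower 2 of 5 excitatory neuron markers and 1 of 3 interneuron markers tested. Among 11 microglial markers tested, 5 were called higher (C1qa, C1qc, Csf1r, Aif1 and Tyrobp) and none lower, with a median of 3.52. The 4 oligodendrocyte markers tested all lay above 0 (median 1.22). The summed oligodendrocyte level was nevertheless lower in dVenus+ cells in 8 of 12 FC mice and higher in 4. The 4 astrocyte markers tested all lay below 0 (median -0.82), and neither list held a call. The part of any of these transcripts in the Slc29a4 difference was not tested. The dVenus- library of FC mouse 09, with no Slc29a4 read, held 1838 normalized CPM of summed granule cell markers and 3189 of summed excitatory neuron markers, both above the group medians of 1276 and 3067. It also held the highest astrocyte sum (2813) and the highest oligodendrocyte sum (4361) of the 12 FC dVenus- libraries.

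In NS mice, which entered the chamber but received no shock, Slc29a4 in dVenus- libraries measured 252 normalized CPM in mouse 18, 133 in mouse 19, 0.0792 in mouse 20 and 47.9 in mouse 21. The dVenus+ libraries of the same mice measured 10.8, 42.0, 130 and 0.701. The classes overlapped: mice 18, 19 and 21 had the lower value in dVenus+ cells, whereas mouse 20 had 646 counts in dVenus+ and 1 count in dVenus- cells. The log2 fold change was -2.07 ± 1.73 (n = 4 mice).

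The dVenus- library of NS mouse 20 held 1479 normalized CPM of granule cell markers, against a group median of 1522, and 2328 of excitatory neuron markers, the lowest of the 4 NS dVenus- libraries (group median 3748). Its summed astrocyte markers reached 3948, the highest value of the 4 NS dVenus- libraries, and its Arc level was 0.158. Its oligodendrocyte sum (119) and microglial sum (7.84) were the lowest of the 4. Leaving out each NS mouse in turn moved the Slc29a4 log2 fold change between -3.72 and -0.55, with a negative sign throughout.

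In HC mice, Slc29a4 measured 177, 2.01 and 106 normalized CPM in the dVenus- libraries of mice 15, 16 and 17, and 1.37, 0.465 and 19.5 in their dVenus+ libraries. The level was lower in dVenus+ cells in 3 of 3 mice, although the dVenus- library of mouse 16, with 10 counts, lay below the dVenus+ library of mouse 17. The log2 fold change was -4.11 ± 2.15, and -2.54 without mouse 15 and -6.72 without mouse 17. The direction seen in FC mice was thus also that of the home cage mice, which had not been trained. In mouse 16 the dVenus+ value rested on 1 count, below that library's floor of 1.40 normalized CPM.

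Over all groups, Slc29a4 was lower in dVenus+ cells in 17 of 19 mice, higher in 1 and equal in 1. Median levels in dVenus- cells were close in FC (101), NS (90.4) and HC (106 normalized CPM), and each lay within the range of the other groups. Median levels in dVenus+ cells were 0.855 in FC, 1.37 in HC and 26.4 in NS, again with overlapping ranges. The difference between FC and NS mice in the log2 fold change was -2.83 ± 1.81, that between FC and HC mice -1.09 ± 2.19, and that between NS and HC mice 1.74 ± 2.45. The last 2 estimates were smaller than their standard errors. The median of all genes was -0.43 for FC minus NS and -0.58 for FC minus HC, and -0.26 and -0.30 with DESeq2's size factors, so these estimates are read relative to a shifted centre.

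**Figure D3:**
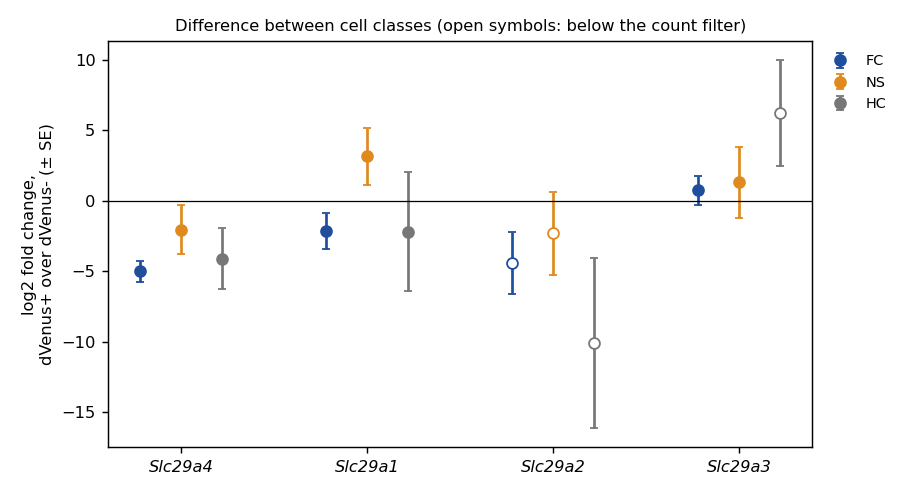
Log2 fold change of dVenus+ over dVenus- cells for each Slc29 gene in FC (blue, n = 12 mice), NS (orange, n = 4) and HC (grey, n = 3); bars are standard errors and open symbols are genes below the count filter. Slc29a4 lies below 0 in all 3 groups, with the smallest standard error in FC, and the open HC symbols rest on a class with no reads.

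Among the transporters of nucleosides at the plasma membrane, Slc29a1 (GeneID 63959, chr17:45585200-45599618, between Hsp90ab1 and Capn11) was scattered. In FC mice it ranged from 0 to 226 normalized CPM in dVenus- libraries (median 8.77, 3 libraries at 0) and from 0 to 30.4 in dVenus+ libraries (median 2.21, 5 libraries at 0). The dVenus- libraries of mice 09, 13 and 12, at 63.5, 85.7 and 226 normalized CPM, lay above every dVenus+ library, and the other 9 lay within the dVenus+ range. The log2 fold change was -2.13 ± 1.28, with a higher level in dVenus+ cells in 4 mice, lower in 6 and equal in 2, and -2.29 ± 1.51 without mice 06, 07 and 14.

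The FC ID series differed in direction for Slc29a1. Both mice of the series of 2 had the higher level in dVenus+ cells, 1 mouse was higher and 1 lower in the series of 4, and 5 mice were lower in the series of 6. Mean levels in the series of 6 mice were 7.67 normalized CPM in dVenus+ and 68.3 in dVenus- cells, against 7.59 and 7.60 in the series of 4.

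In NS mice 18, 19, 20 and 21, Slc29a1 measured 0, 0, 1.03 and 10.7 normalized CPM in dVenus- libraries, and 19.0, 8.63, 57.1 and 0 in dVenus+ libraries. It was higher in dVenus+ cells in 3 of 4 mice, with a log2 fold change of 3.14 ± 2.03. That value was 6.78 ± 2.36 with DESeq2 and 6.11 ± 4.12 with the older quasi-likelihood method, and ranged from 1.75 without mouse 20 to 6.15 without mouse 21. In HC mice 15, 16 and 17, the dVenus- libraries held 1.48, 0 and 85.7 normalized CPM, and the dVenus+ libraries 10.4, 0 and 0. The HC log2 fold change of -2.19 ± 4.23 came from mouse 17 and was 2.56 without it.

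The sign of the Slc29a1 difference was thus negative in FC and positive in NS mice. The estimate for FC minus NS was -5.58 ± 2.74, for FC minus HC -0.07 ± 3.94, and for NS minus HC 5.51 ± 4.33. With DESeq2's size factors the second of these was 0.21. No test is given for them, since the contrast is the one that chose the family, and FC and NS mice also differed in ID series.

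Slc29a2, the other plasma membrane nucleoside transporter (GeneID 13340, chr19:5019057-5031972, between Npas4 and Brms1), was the least detected member, with a read in 10 of 38 libraries. Its counts were concentrated, with 91.8% of them in 4 libraries. In FC mice it reached at most 67.5 normalized CPM in dVenus- libraries (7 of 12 at 0) and 14.2 in dVenus+ libraries (10 of 12 at 0). It did not pass the count filter in any of the 3 groups, and its fold changes come from a fit without that filter.

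In FC mice the log2 fold change of Slc29a2 was -4.45 ± 2.21, lower in dVenus+ cells in 5 mice, higher in 1 and equal in 6. In NS mice a single dVenus- library, that of mouse 20, held 30 counts and a single dVenus+ library held 2. In HC mice the dVenus- library of mouse 15 held 904 counts and the 5 other libraries none. The difference rests on 1 library, at 67.0 normalized CPM against a floor of 0.823 in the dVenus+ library of the same mouse.

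Slc29a3, the lysosomal transporter gene (GeneID 71279, chr10:60712072-60752849, between Cdh23 and Unc5b), showed few high libraries over a low base. In FC mice the dVenus- libraries held between 0 and 7.62 normalized CPM (median 2.41), and the dVenus+ libraries between 0 and 106 (median 1.62). The dVenus+ libraries of mice 07, 09 and 11, at 85.2, 106 and 18.9 normalized CPM, exceeded every dVenus- library, while the other 9 lay within the dVenus- range. Mice 09 and 07 also had the 2 highest microglial sums of the FC dVenus+ libraries, 2705 and 2039 normalized CPM, and mouse 11 had 472, against a median of 365. High microglial sums also came with little Slc29a3. The FC dVenus+ libraries of mice 04, 05 and 01 had sums of 982, 957 and 768 with Slc29a3 at 2.01, 2.81 and 0.884 normalized CPM, and those of NS mouse 20 (1905) and HC mouse 15 (1888) had none. The highest Slc29a3 levels of NS and HC dVenus+ libraries, 77.3 in mouse 21 and 9.30 in mouse 16, came with sums of 1221 and 1469. The part of microglial transcripts in the Slc29a3 levels was not tested.

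The FC log2 fold change of Slc29a3 was 0.73 ± 1.05, higher in dVenus+ cells in 5 mice and lower in 7, and 0.47 ± 1.10 without mice 06, 07 and 14. Leaving out 1 mouse at a time moved the value between 0.03 (without mouse 09) and 1.20 (without mouse 12). Its sign depended on the fit, with -0.22 from DESeq2 and -0.23 from edgeR's older quasi-likelihood method. No direction is therefore given for this member in FC mice.

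In NS mice 18, 19, 20 and 21, Slc29a3 measured 24.7, 2.71, 0 and 0 normalized CPM in dVenus- libraries, and 8.35, 0.893, 0 and 77.3 in dVenus+ libraries. The log2 fold change of 1.29 ± 2.54 became -1.60 without mouse 21. In HC mice the only reads were the 20 counts in the dVenus+ library of mouse 16, at 9.30 normalized CPM against a floor of 0.604 in the dVenus- library of the same mouse.

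Context exposure without shock was compared with the home cage within each cell class, in 4 NS and 3 HC mice of 1 ID series. This contrast did not choose the family. In dVenus+ cells, edgeR called 0 of 8706 genes (0%), with 773 at an unadjusted p under 0.05, and DESeq2 called 110. In dVenus- cells, edgeR called 0 of 8547 genes (0%), with 756 at an unadjusted p under 0.05, and DESeq2 called 144. In these cells edgeR called 3 genes without mouse 16 and 8 without mouse 17. Slc29a2 in both classes and Slc29a3 in dVenus- cells did not pass the count filter, and none of the members tested was called by edgeR.

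In dVenus+ cells, Slc29a4 was 2.46 ± 1.63 higher on the log2 scale in NS than in HC mice (edgeR adjusted p = 0.714), Slc29a1 was 2.67 ± 1.83 higher (adjusted p = 0.727) and Slc29a3 was 3.30 ± 2.17 higher (adjusted p = 0.71). Leaving out 1 mouse at a time moved the value of Slc29a4 between 1.03 and 5.52 and that of Slc29a1 between 1.51 and 9.71. The 3 positive estimates each lay within 2 standard errors of 0, and the ranges of the 2 groups overlapped for each gene. In dVenus- cells the estimate for Slc29a4 was 0.06 ± 1.24 (adjusted p = 0.994), and that for Slc29a1 was -3.13 ± 1.84 (adjusted p = 0.659). The latter was 1.67 without HC mouse 17. Without the count filter, Slc29a2 had -4.92 ± 2.30 and Slc29a3 8.73 ± 5.14 in dVenus- cells. All HC reads behind the Slc29a2 value were the 904 counts of mouse 15. The Slc29a3 value was fitted over HC dVenus- libraries with no read, so it is not a measured fold.

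The paired contrasts in the smaller groups gave few calls over all genes. In NS mice, edgeR called 4 of 8187 genes (0.0489%), 3 higher and 1 lower, with 710 at an unadjusted p under 0.05 and 671 called by DESeq2. With DESeq2's size factors edgeR called 11, 5 higher and 6 lower. In HC mice, edgeR called 0 of 7588 genes (0%), with 532 at an unadjusted p under 0.05 and 629 called by DESeq2. The 3 tests of a difference between training histories in the class contrast each called 0 of 14075 genes (0%) with edgeR, with 1152, 1304 and 968 genes at an unadjusted p under 0.05 for FC minus NS, FC minus HC and NS minus HC. DESeq2 was not run for them.

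Other genes tied to nucleosides and monoamines were listed by role, 83 in all, and each was among the genes counted. In FC mice 29 were tested, and 1 was called lower and none higher in dVenus+ cells (3.45%, against 4.35% of all genes). Their median log2 fold change was -0.67, against -0.11 for all genes tested. In NS and HC mice 25 were tested in each group and edgeR called 0 of them, with 3 and 1 at an unadjusted p under 0.05.

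The called gene was Ahcyl2, a homologue of the enzyme that splits S-adenosylhomocysteine into adenosine and homocysteine. Homology does not show that its product has this activity, and no enzyme activity was measured. In FC mice its dVenus- libraries held between 41.5 and 569 normalized CPM (median 237), and its dVenus+ libraries between 0.563 and 156 (median 67.0). The log2 fold change was -2.29 ± 0.53 (edgeR adjusted p = 0.0105, lower in 11 of 12 mice). The call was lost without mice 06, 07 and 14, at -2.43 ± 0.64, and with the older quasi-likelihood method, at -2.37 ± 0.63. It was also lost within the ID series of 4 mice, at -3.63 ± 1.01, and within that of 6 mice, at -1.33 ± 0.59. Among the 18 genes tested from the list of intracellular enzymes, 14 had a log2 fold change below 0 (54.1% of all genes tested did), with a median of -0.94. Ahcyl1 and Hprt, next to Ahcyl2 in mean level, had values of -0.35 ± 0.42 and 1.04 ± 0.54 (-0.75 and 0.66 without mice 06, 07 and 14) and were not called.

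The adenosine A1 receptor gene Adora1, the only adenosine receptor gene with enough counts, had a log2 fold change of -1.56 ± 0.51 in FC mice (edgeR adjusted p = 0.0762, lower in 11 of 12 mice). It was not called by edgeR and was called by DESeq2, at -1.64 ± 0.44, and was -1.48 ± 0.63 without mice 06, 07 and 14. The value was -1.82 ± 1.21 in NS mice (lower in 3 of 4), and ranged from -2.64 without mouse 19 to -0.95 without mouse 21. In HC mice it was 3.35 ± 2.41 (higher in 3 of 3, and 1.77 without mouse 17). The NS and HC values were called by neither edgeR nor DESeq2. None of the 8 genes of extracellular adenosine formation passed the count filter in FC mice. Slc28a3, a sodium-coupled nucleoside transporter gene, had a value of 0.34 ± 0.61 (0.11 without mice 06, 07 and 14) and was not called.

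On the monoamine side, the low-affinity transporter genes Slc22a2, Slc22a3, Slc47a1 and Slc47a2 did not pass the count filter in any comparison, and Slc47a2 had no read in any of the 38 libraries. Slc22a3, the most abundant of these 4, reached at most 3.37 normalized CPM in a library. The vesicular transporter gene Slc18a2 had a log2 fold change of -0.39 ± 1.03 in FC mice. Among the receptor genes with the highest mean level in their lists, Htr4 had a value of 1.52 ± 0.62 (edgeR adjusted p = 0.176, higher in 8 of 12 mice), Htr1a -3.42 ± 1.08 (adjusted p = 0.0629, lower in 9 of 12 mice), Drd5 -0.67 ± 1.20 and Adra1d -2.03 ± 0.98. Without mice 06, 07 and 14, the values of Slc18a2 and Drd5 turned to 0.18 ± 1.29 and 1.00 ± 1.17, and those of Htr4, Htr1a and Adra1d were 1.43, -2.96 and -1.36. None of these was called by edgeR with all mice. Htr1a was called without mouse 04 (-4.24) or mouse 11 (-4.16), and was -1.01 ± 0.83 with no replicate block. DESeq2 called Htr4, at 1.55 ± 0.54, and Htr1a, at -4.75 ± 0.93.

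**Figure D4:**
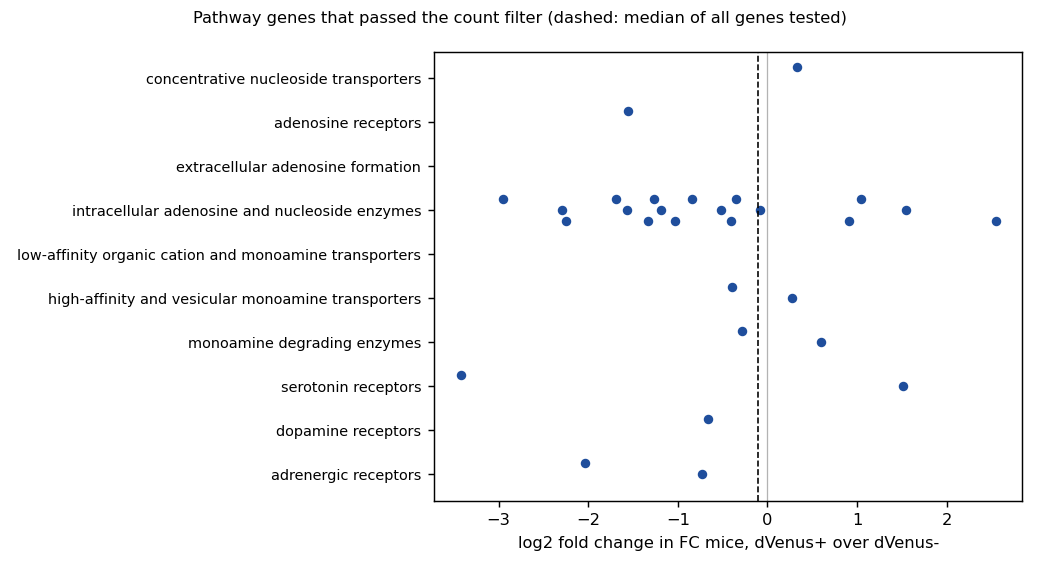
Log2 fold change of dVenus+ over dVenus- cells in 12 FC mice for the 29 listed genes that passed the count filter, 1 point a gene, in rows by role; the dashed line is the median of all genes tested, -0.11, and the grey line is 0. Most points are in the row of intracellular enzymes, and the rows without points held no gene with enough counts.

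The neighbours of Slc29a4 on chromosome 5 gave values closer to 0. Wipi2 had a log2 fold change of 0.57 ± 0.43 in FC mice and was higher in dVenus+ cells in 10 of 12 mice. Tnrc18, whose annotated end lies 2111 bases from that of Slc29a4, had a value of -1.20 ± 0.86 and was lower in 8 of 12 mice. Without mice 06, 07 and 14 the 2 values were 0.55 and -1.35. Neither was called by edgeR. Npas4, next to Slc29a2, was below the count filter and was higher in dVenus+ cells in 9 of 12 FC mice and equal in 3.

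Likeness between transcripts was described by Spearman's correlation of log2 CPM over the 38 libraries, among 8885 genes. The libraries fall in 2 cell classes, share mice in pairs and differ in depth, so the values describe the libraries and carry no test. The 5 genes most like Slc29a4 were Vstm2b (0.719), Camkv (0.708), Tln2 (0.693), Nat14 (0.682) and Rgs14 (0.680). Over the 19 dVenus- libraries alone the values were 0.512, 0.191, 0.62, 0.347 and 0.211, and over the 19 dVenus+ libraries alone they were 0.530, 0.605, 0.663, 0.501 and 0.486. In FC mice the log2 fold changes of Vstm2b and Camkv were -3.32 ± 0.80 and -3.42 ± 0.50, and -3.30 and -3.22 without mice 06, 07 and 14. These genes were picked by likeness to Slc29a4 over libraries of both classes. A shift in its direction was thus largely built in, and lends the Slc29a4 difference no support.

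The genes most like Slc29a1 were Tmem175 (0.692), Abhd16a (0.682), Dopey1 (0.668), C230004F18Rik (0.662) and Dph5 (0.654). The value for Abhd16a was 0.872 within dVenus- libraries and 0.491 within dVenus+ libraries. Genes most like Slc29a3 were Krr1 (0.565), Snx25 (0.529) and Mob2 (0.529), followed by Hemk1 and, at 0.515, 2310044G17Rik. The members were little alike: the correlation of Slc29a4 was 0.175 with Slc29a1, 0.202 with Slc29a2 and 0.01 with Slc29a3. Slc29a1 and Slc29a4 shared 18 libraries with at least 10 counts of each.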

How the data were processed

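Counts per gene were deposited for each library. Per the labels and the study's methods, the authors aligned single reads to mm10 with TopHat2 2.0.13 and counted uniquely aligned reads with HTSeq 0.6.0. The 5 entries that name no gene were left out of library sizes and tests. Reads outside genes made up between 16.4% and 59.7% of unique reads, and ambiguous reads between 0.181% and 1.58%. A table of the whole series, with 38 columns, was not used.

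Tests used edgeR 4.0.16 in R 4.3.3 (TMM, quasi-likelihood F test, Benjamini-Hochberg adjustment), with mouse as a block within FC, NS and HC. On simulated data with known changes, the test made calls in the design of FC and none in those of NS, HC and NS against HC. Genes needed at least 10 counts in at least 12 (FC), 4 (NS) or 3 libraries. A gene was called at an adjusted p under 0.05 with an absolute log2 fold change above 1. DESeq2 1.42.0 was an alternative. The newer quasi-likelihood method of edgeR was used. The older method is the default of this version and was run first, and the choice was made after the counts of calls under both were seen.

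Both libraries of a mouse come from 1 animal, which gives the pairing. The correlation of their deviations from the group means had a median of 0.0407 in FC (2 of 12 pairs over 0.1), -0.0127 in NS and 0.0176 in HC. The common biological coefficient of variation was 1.20, 1.42 and 1.42. No 2 libraries held identical counts.

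The members and gene lists were chosen with earlier results of these data known. Named genes were the members, Arc, pathway genes called in any comparison, up to 3 per list with the highest mean level, the nearest annotated genes, and the 5 genes most like each member with at least 10 counts in 19 libraries. Of the pathway lists, 2 genes are not reported here by name; they remain in the list counts.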

Additional observations from a re-analysis of the deposited data

Results flagged for a closer look

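Of the 8 groups of 4 NS libraries (4 genes in 2 classes), 7 had a library above the floor of 3 counts, and in 4 of these 1 library stood far from the other 3. Chance flags about 1 in 20 groups, a rate not checked here for groups with many values at 0. Among dVenus- libraries, Slc29a1 measured 10.7 normalized CPM in mouse 21, with the next highest at 1.03, and Slc29a2 measured 2.38 in mouse 20, with the other 3 at 0, which fixes its distance beforehand. Slc29a3 measured 77.3 normalized CPM in the dVenus+ library of mouse 21, with the next highest at 8.35, and 24.7 in the dVenus- library of mouse 18, with the next highest at 2.71. These values rest on 134, 30, 331 and 162 counts.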

How the results depend on the processing

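Of the alternatives, the older quasi-likelihood method of edgeR was chosen after seeing the data and the rest were planned. That method is the package default and was run first. The newer one became the main method after both counts were known, because its counts match earlier results of these data. The older method called 137 genes in FC mice (56 higher, 81 lower, all 137 among the 422), 0 in NS mice, 2 in HC mice and 1 for NS minus HC in the class contrast. It gave -0.23 for Slc29a3 in FC mice and -6.05 ± 1.07 for Slc29a4. DESeq2 called 1647, 671 and 629 genes in the FC, NS and HC contrasts, and 110 and 144 for NS against HC in dVenus+ and dVenus- cells, with -0.22 for Slc29a3 in FC mice.

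Without mice 06, 07 and 14, 154 genes were called in FC, 136 of them shared with the 422. Within the FC ID series of 4 mice alone 12 were called (9 higher, 3 lower), and within that of 6 mice alone 15 (13 higher, 2 lower). Calls this few cannot show whether lower genes were in excess there. The median log2 fold change of all genes was -0.33 in the series of 4 mice and -0.03 in that of 6, against -0.11 with all FC mice. Slc29a4 was -5.28 and -4.63 in these smaller sets. In the series of 6 mice Slc28a3 was -0.12, Wipi2 -0.18 and Drd5 0.89, and Slc18a2 was 0.92 in that of 4. Without mice 06, 07 and 14, Slc18a2 was 0.18 and Drd5 1.00. NS calls numbered 11 with DESeq2's size factors and 1 without the count filter, and Slc29a1 for FC minus HC was 0.21 with the size factors. With no replicate block, which ignores the pairing by mouse, the FC, NS and HC contrasts gave 487, 13 and 0 calls. Slc29a4 was then -4.47, -1.25 and -3.72, and in FC mice Slc29a3 was 2.96 and Slc18a2 1.12.

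Leaving out 1 mouse at a time, calls ranged from 292 to 405 in FC and from 0 to 2 in NS, stayed at 0 in HC and for NS against HC in dVenus+ cells, and ranged from 0 to 8 in dVenus- cells (3 without mouse 16, 8 without mouse 17). Slc29a4 ranged from -5.56 to -4.75 in FC, -3.72 to -0.55 in NS and -6.72 to -2.54 in HC. For NS against HC in dVenus- cells it ranged from -0.68 to 0.70, being -0.50, -0.68 and -0.11 without mice 16, 18 and 19, and Slc29a1 ranged from -6.02 to 1.67. Slc29a1 in HC ranged from -2.22 to 2.56, and Slc29a3 in NS from -1.60 to 2.38. The cause was not tested for any of these changes.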
